A study of Mus musculus with 10 samples.

Results

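The α chain of the interleukin 7 receptor, the common γ chain and 7 further cytokine receptor chains related to them were followed across 4 sorted progenitor groups of mouse bone marrow. The genes were taken by symbol from a list of the IL-7 receptor and the common γ chain receptor family: Il7r, Il2rg, Il2rb, Il2ra, Il4ra, Il21r, Il9r, Il15ra and Crlf2. All 9 were measured, among 23152 genes in all. The study split lymphoid-primed multipotent progenitors (LMPPs) by CD127 and set both parts beside common lymphoid progenitors (CLPs). All cells came from adult C57BL/6 mice and lacked lineage markers, and their total RNA was hybridised to Affymetrix arrays. The LMPPs had high cKit, Sca-1 and Flt3 on their surface and were CD127- (3 arrays) or CD127+ (3 arrays). The CLPs carried CD127 and high Flt3 with little cKit or Sca-1, and were Ly6D- (2 arrays) or Ly6D+ (2 arrays). CD127 is the protein that Il7r encodes, so every group but the CD127- LMPPs was sorted for it.

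Cytokine receptors of the common γ chain family pair a private chain, which binds the cytokine, with the common γ chain encoded by Il2rg, which recruits the kinase JAK3. The receptor for IL-7 pairs CD127 with the common γ chain and signals mainly through STAT5, and in mouse bone marrow it carries survival and differentiation signals in early lymphoid cells, above all in the B lineage. CD127 also pairs with the chain encoded by Crlf2 to bind thymic stromal lymphopoietin, and the chain encoded by Il2rb serves the receptors for both IL-2 and IL-15.

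Promoter windows are shown for Il7r, Il2rg and Il21r, which were called higher in both CLP groups than in CD127- LMPPs, and for Il15ra, which was called lower in Ly6D+ CLPs. Each window runs 5′ to 3′ on the gene's strand, from 250 bases before to 50 bases after a RefSeq start site (build GRCm38.p6). A window was found for 8 of the 9 genes. None was found for Il2rb, which was also called higher in both CLP groups. Il15ra has 2 windows, of which the first is shown. Capitals mark matches, on either strand, to the letters AGGAAGT and CCGGAAG (ETS family), TGTGGT (RUNX), TGTTTAC (FOXO) and TTCNNNGAA (STAT). Il7r lies at chr15:9529827-9530126 on the minus strand, Il2rg at chrX:101268206-101268505 on the minus strand, Il21r at chr7:125603179-125603478 on the plus strand and the Il15ra window at chr2:11705043-11705342 on the plus strand.
Il7r: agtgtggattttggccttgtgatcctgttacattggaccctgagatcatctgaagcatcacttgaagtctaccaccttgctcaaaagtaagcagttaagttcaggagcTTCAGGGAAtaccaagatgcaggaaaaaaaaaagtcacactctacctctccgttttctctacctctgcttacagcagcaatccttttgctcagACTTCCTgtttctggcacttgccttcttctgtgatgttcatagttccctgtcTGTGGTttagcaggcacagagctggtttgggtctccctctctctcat
Il2rg: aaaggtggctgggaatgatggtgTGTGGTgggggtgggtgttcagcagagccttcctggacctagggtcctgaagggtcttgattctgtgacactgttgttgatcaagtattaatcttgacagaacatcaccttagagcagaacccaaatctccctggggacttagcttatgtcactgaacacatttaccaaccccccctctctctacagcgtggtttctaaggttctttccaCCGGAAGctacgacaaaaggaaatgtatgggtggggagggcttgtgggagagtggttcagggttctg
Il21r: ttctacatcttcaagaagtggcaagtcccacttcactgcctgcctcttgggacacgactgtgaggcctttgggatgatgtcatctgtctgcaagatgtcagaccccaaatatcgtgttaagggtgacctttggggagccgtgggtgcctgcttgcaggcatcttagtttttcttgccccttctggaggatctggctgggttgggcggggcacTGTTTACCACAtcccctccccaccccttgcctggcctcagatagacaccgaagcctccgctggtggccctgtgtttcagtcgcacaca
Il15ra: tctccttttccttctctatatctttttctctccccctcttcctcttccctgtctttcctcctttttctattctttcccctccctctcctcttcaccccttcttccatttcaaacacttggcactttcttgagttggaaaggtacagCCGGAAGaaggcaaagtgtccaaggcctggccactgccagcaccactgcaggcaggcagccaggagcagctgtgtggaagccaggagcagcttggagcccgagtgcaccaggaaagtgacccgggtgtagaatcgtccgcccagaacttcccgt

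The Il7r window held AGGAAGT read on the opposite strand from -49 to -43, TGTGGT from 4 to 9 and TTCNNNGAA from -142 to -134, counted from the start site. The Il2rg window held CCGGAAG from -17 to -11 and TGTGGT from -227 to -222. In the Il21r window TGTTTAC lay from -38 to -32 and overlapped TGTGGT, read on the opposite strand from -33 to -28. The first Il15ra window held CCGGAAG from -104 to -98, and its second window held none of the 5. Windows of genes that were not called held such letters too. Il2ra had AGGAAGT on the opposite strand from -35 to -29. Il9r had TGTGGT from -83 to -78, and Crlf2 had it on the opposite strand from -236 to -231. The Il4ra window held none of the 5. Over 32851 RefSeq windows of the same length, 9.35% held AGGAAGT, 8.86% CCGGAAG, 16.8% TGTGGT, 3.65% TGTTTAC and 8.30% TTCNNNGAA. A match describes letters only, and binding was not measured.

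Each gene value is the mean, on the log2 scale, of the probe sets annotated to that gene alone, 103 probe sets for the 9 genes. Group means carry the standard deviation (SD) over arrays, and differences carry limma's standard error (SE) and 95% interval. A gene was called where limma's p was under 0.05 after Benjamini-Hochberg adjustment across the 23152 genes of each comparison. Genes of olfactory, vomeronasal and taste receptors gave a low-signal limit of 4.45, the 95th percentile of their means. A fold whose dimmer mean lay under that limit is given as at least the fold over the limit, and none is given where both means lay under it. Whether arrays of a group stem from separate animals or sorts is not stated, so the p-values cover the spread among these arrays, which may be technical. The small number of arrays limits the precision. Whether LMPP and CLP arrays were run together is not stated either. A difference between LMPPs and CLPs therefore cannot be told apart from one between runs.

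Across arrays, the quartiles of all values differed by at most 0.13, and arrays of a group correlated at 0.97 to 0.99. Of 8 T cell markers, Cd3e, Cd3d, Cd3g, Cd4, Cd8a and Cd8b1 lay under the low-signal limit in all 4 groups, while Cd28 was called higher in all 3 comparisons with CD127- LMPPs (by 1.01, 1.28 and 1.58 in CD127+ LMPPs, Ly6D- and Ly6D+ CLPs) and Cd5 in both CLP groups (1.30 and 1.33). Of 9 NK cell markers, 5 lay under the limit in each LMPP group and 4 in each CLP group. Of the same list, Klrd1, Gzmb and Prf1 were called higher in Ly6D+ CLPs (0.97, 1.34 and 0.66), and in Ly6D- CLPs Gzmb was called higher and Nkg7 lower (0.92 and -0.56), relative to CD127- LMPPs. A list of 10 mature granulocyte genes had array means of 6.52 to 7.28 in CD127+ LMPPs, against 4.65 to 5.75 in CD127- LMPPs, 4.91 to 5.11 in Ly6D- CLPs and 4.85 to 5.40 in Ly6D+ CLPs. Of these 10 genes, 6 were called higher in CD127+ than in CD127- LMPPs. Of 8 monocyte and macrophage genes, 4 were called lower in CD127+ LMPPs and 5 in each CLP group, relative to CD127- LMPPs, with array means of 6.23 to 6.76 in CD127- LMPPs and 4.80 to 5.68 in the other groups. Siglech, a plasmacytoid dendritic cell marker, had means of 5.59, 6.49, 7.71 and 8.92 in CD127- LMPPs, CD127+ LMPPs, Ly6D- CLPs and Ly6D+ CLPs. It was called higher in all 3 comparisons with CD127- LMPPs. Of the 8 dendritic genes measured, Itgax was also called higher in both CLP groups. Clec9a of that list was called lower in all 3 comparisons with CD127- LMPPs, Irf8 in CD127+ LMPPs and Bst2 in both CLP groups. The means of Clec9a were 6.34, 4.17, 5.17 and 4.72 in CD127- LMPPs, CD127+ LMPPs, Ly6D- CLPs and Ly6D+ CLPs. Icos of the innate lymphoid list was called higher in both CLP groups, Tcf7 in Ly6D- CLPs and Cd79a in Ly6D+ CLPs. Of 6 measured erythroid and megakaryocyte genes, only the erythroid gene Car1 was called between the LMPP groups. It was higher in CD127+ than in CD127- LMPPs (8.66 against 5.73) and lower in Ly6D+ CLPs (4.32). Of 9 mast cell, basophil and eosinophil genes, Prg2 (6.81 against 4.34) and Cpa3 (5.44 against 4.47) were called higher in CD127+ than in CD127- LMPPs. Mcpt8 was called lower there (5.84 against 7.43) and in both CLP groups, and Cpa3 higher in Ly6D- CLPs. The part of these marker genes in the receptor differences below was not tested. In RNA from sorted populations, fewer cells with a transcript and less transcript per cell cannot be told apart.

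Il7r followed the sort. It read 3.84, 4.70 and 4.43 on the CD127- LMPP arrays, with arrays 1 and 3 under the low-signal limit and array 2 over it. In CD127+ LMPPs it read 9.05, 9.15 and 9.10, in Ly6D- CLPs 9.34 and 9.28, and in Ly6D+ CLPs 9.66 and 9.62. No array of a group sorted for CD127 came near the CD127- LMPPs. The difference from CD127- LMPPs was 4.77 log2 in CD127+ LMPPs (SE 0.19, at least 25.1-fold, adjusted p = 1.03e-06), 4.99 in Ly6D- CLPs (SE 0.21, at least 29.0-fold, adjusted p = 2.61e-06) and 5.31 in Ly6D+ CLPs (SE 0.21, at least 36.5-fold, adjusted p = 2.18e-07). These values restate the division of the cells by CD127 and are a check of that label alone. In CD127- LMPPs, CD127+ LMPPs, Ly6D- CLPs and Ly6D+ CLPs, Kit had means of 8.70, 8.33, 7.62 and 7.05. Flt3 had 9.82, 10.2, 10.2 and 10.1 in the same order. Ly6a, the gene of Sca-1, had 5.82, 7.02, 5.51 and 6.30 and was called in no comparison. Ly6d had 4.76, 8.67, 5.88 and 11.3, and was called lower in Ly6D- CLPs than in CD127+ LMPPs.

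Among the 3 groups sorted for CD127, the mean of Il7r in CD127+ LMPPs was 9.10 ± 0.05 (SD, n = 3). Ly6D- CLPs had a mean of 9.31 ± 0.05 (SD, n = 2), and Ly6D+ CLPs one of 9.64 ± 0.03 (SD, n = 2). The arrays of these groups did not overlap, with each Ly6D+ CLP array above each Ly6D- CLP array and each of those above the CD127+ LMPPs. None of the 3 differences was called. Ly6D- CLPs differed from CD127+ LMPPs by 0.21 (95% interval -0.26 to 0.68, adjusted p = 0.659). Ly6D+ CLPs differed from CD127+ LMPPs by 0.54 (0.07 to 1.01, adjusted p = 0.199) and from Ly6D- CLPs by 0.33 (-0.19 to 0.85, adjusted p = 0.723). The intervals leave out a change among these groups of the size seen against CD127- LMPPs.

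Il2rg, which encodes the common γ chain and was no part of the sort, was called higher in all 3 other groups than in CD127- LMPPs. It read 8.20, 8.08 and 8.08 in CD127- LMPPs and 9.05, 8.62 and 8.95 in CD127+ LMPPs. It read 9.41 and 9.34 in Ly6D- CLPs and 9.58 and 9.68 in Ly6D+ CLPs. Every array of a later group in this order lay above every array of the group before it, and array 2 was the lowest of the CD127+ LMPPs. Relative to CD127- LMPPs, Il2rg was 1.69-fold higher in CD127+ LMPPs (log2 difference 0.75, SE 0.14, adjusted p = 0.0245), 2.39-fold higher in Ly6D- CLPs (1.26, SE 0.16, adjusted p = 0.00133) and 2.85-fold higher in Ly6D+ CLPs (1.51, SE 0.16, adjusted p = 0.000236).

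Within the groups sorted for CD127, Il2rg was 1.69-fold higher in Ly6D+ CLPs than in CD127+ LMPPs (log2 difference 0.76, SE 0.16, adjusted p = 0.0244). The steps on either side of Ly6D- CLPs did not pass: 0.50 over CD127+ LMPPs (95% interval 0.15 to 0.85, adjusted p = 0.128) and 0.26 from Ly6D- to Ly6D+ CLPs (-0.13 to 0.64, adjusted p = 0.706). Both Il2rg calls against CD127- LMPPs in the CLP groups held in all 17 alternatives tried. None of these alternatives can tell a difference between CLPs and LMPPs from one between runs of arrays. The call between the LMPP groups missed the threshold without any 1 of the 3 CD127- LMPP arrays (adjusted p = 0.0731, 0.0920 and 0.0759) or without CD127+ LMPP array 1 (0.115) or 3 (0.110), with the LMPP arrays fitted alone (0.0562) and with the brightest probe set (0.154). The call between Ly6D+ CLPs and CD127+ LMPPs missed it without CD127+ LMPP array 2 (0.0748) or 3 (0.0550) and without Ly6D+ CLP array 1 (0.122) or 2 (0.165), with the compared arrays fitted alone (0.0622), with the median (0.111) and with the brightest probe set (0.327).

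**Figure D1:**
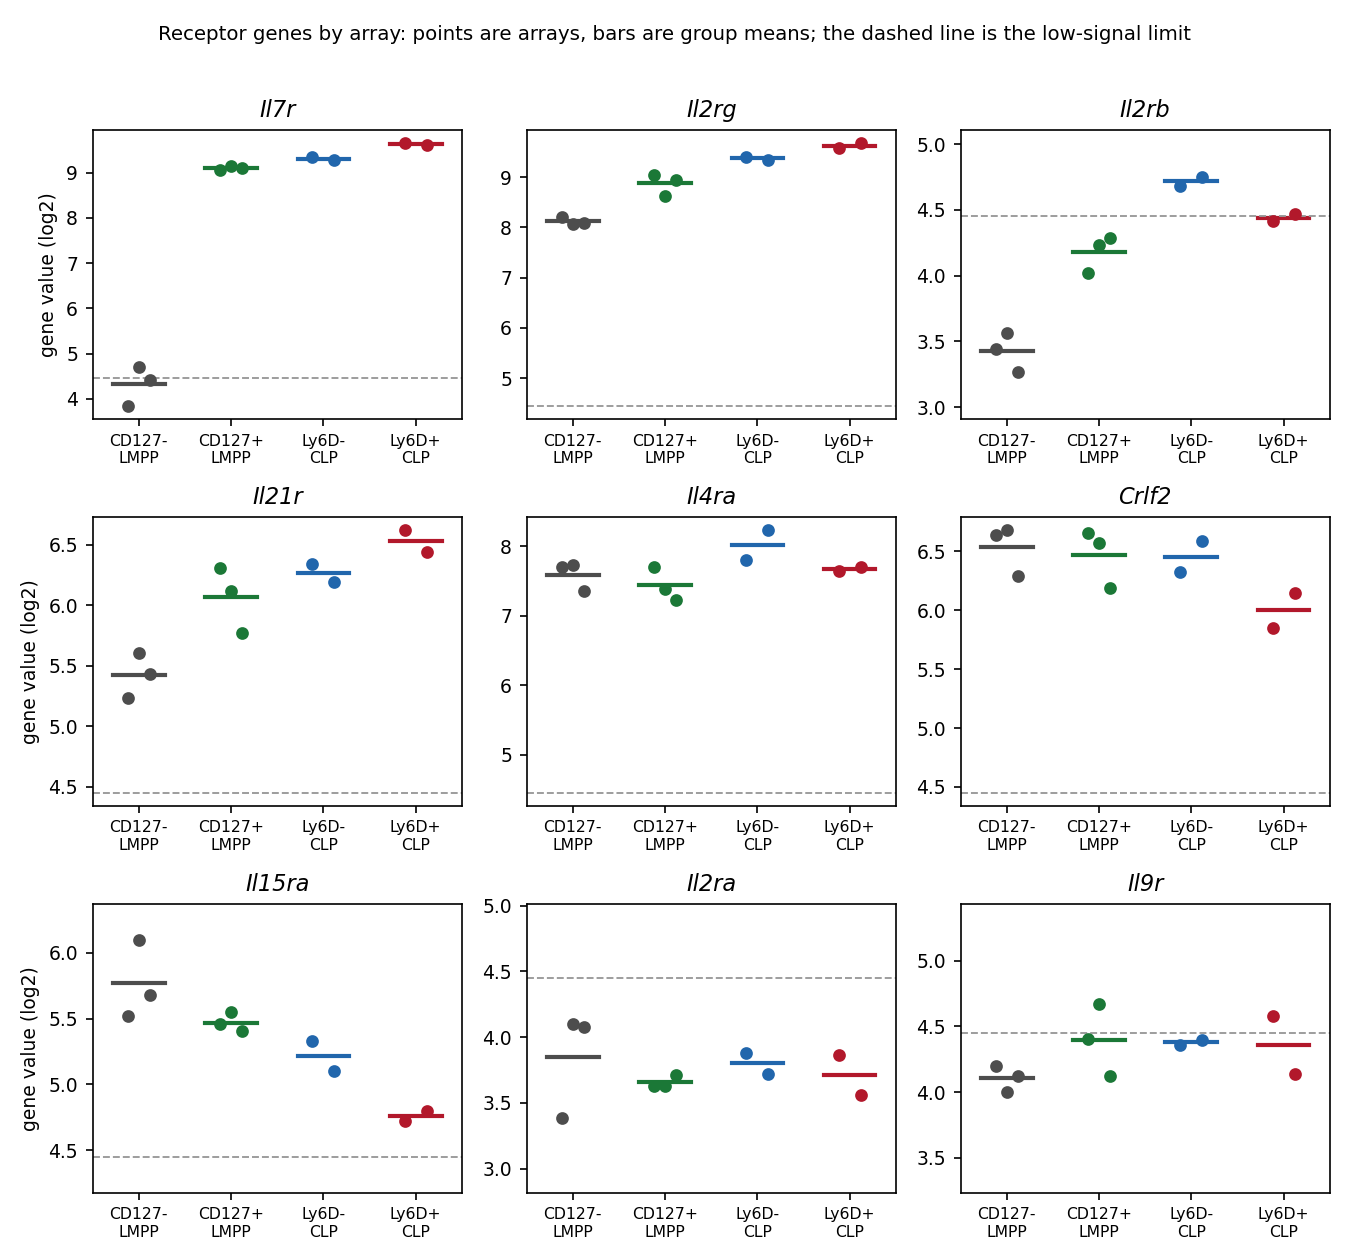
Gene value (log2, vertical axis, with its own range in each panel) of the 9 receptor genes on each array, grouped by sorted population; points are arrays, horizontal bars are group means and the dashed line is the low-signal limit of 4.45. Il7r separates the CD127- LMPPs from the other groups, Il2rg and Il21r have their highest mean in Ly6D+ CLPs, Il15ra has its lowest mean there, and all arrays of Il2ra lie under the limit.

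Il2rb, the β chain shared by the receptors for IL-2 and IL-15, had group means near or under the low-signal limit and was called higher in all 3 other groups than in CD127- LMPPs. It read 3.44, 3.56 and 3.27 in CD127- LMPPs and 4.02, 4.23 and 4.29 in CD127+ LMPPs, all under the limit. It read 4.68 and 4.75 in Ly6D- CLPs, both over it, and 4.41 and 4.47 in Ly6D+ CLPs, on either side of it. The groups did not overlap, and Ly6D- CLPs were the highest. Relative to CD127- LMPPs, Il2rb was higher by 0.76 log2 in CD127+ LMPPs (SE 0.13, adjusted p = 0.0187), by 1.29 in Ly6D- CLPs (SE 0.15, at least 1.20-fold, adjusted p = 0.000966) and by 1.02 in Ly6D+ CLPs (SE 0.15, adjusted p = 0.00188).

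No Il2rb difference among the 3 other groups was called: 0.54 between Ly6D- CLPs and CD127+ LMPPs (95% interval 0.21 to 0.87, adjusted p = 0.0924), 0.26 between Ly6D+ CLPs and CD127+ LMPPs (adjusted p = 0.390) and -0.28 between Ly6D+ and Ly6D- CLPs (adjusted p = 0.663). The Il2rb call between the LMPP groups was lost without CD127- LMPP array 1 (adjusted p = 0.0741) or 3 (0.0683) and without CD127+ LMPP array 2 (0.0826) or 3 (0.0924). With the brightest probe set in place of the mean, the Il2rb difference lost its call in all 3 comparisons with CD127- LMPPs (adjusted p = 0.605, 0.0868 and 0.287), and with the median between the LMPP groups (0.148).

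Il21r, the private chain of the IL-21 receptor, read 5.24, 5.60 and 5.43 in CD127- LMPPs and 6.31, 6.12 and 5.78 in CD127+ LMPPs. It read 6.34 and 6.20 in Ly6D- CLPs and 6.62 and 6.45 in Ly6D+ CLPs. The CD127- LMPP arrays were the 3 lowest, while Ly6D- CLPs overlapped CD127+ LMPPs. Il21r was 1.80-fold higher in Ly6D- CLPs (log2 difference 0.84, SE 0.19, adjusted p = 0.0210) and 2.16-fold higher in Ly6D+ CLPs (1.11, SE 0.19, adjusted p = 0.00372) than in CD127- LMPPs. Its difference of 0.64 between the LMPP groups (95% interval 0.28 to 1.01, adjusted p = 0.112) did not pass, and neither did 0.20 between Ly6D- CLPs and CD127+ LMPPs (adjusted p = 0.621), 0.47 between Ly6D+ CLPs and CD127+ LMPPs (adjusted p = 0.200) and 0.27 between the CLP groups (adjusted p = 0.744).

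The Il21r call in Ly6D- CLPs was lost without CD127- LMPP array 1 (adjusted p = 0.0769) or 3 (0.0523) and without Ly6D- CLP array 1 (0.105) or 2 (0.0655), and with the compared arrays fitted alone (0.0534). The median over the 9 Il21r probe sets in place of their mean ended it in both CLP groups (adjusted p = 0.294 in Ly6D- and 0.112 in Ly6D+ CLPs), as did the brightest probe set (0.344 and 0.0887).

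Il15ra, the private chain that holds IL-15 for presentation, went the other way. It read 5.52, 6.10 and 5.68 in CD127- LMPPs and 5.46, 5.55 and 5.41 in CD127+ LMPPs, which overlapped. It read 5.33 and 5.10 in Ly6D- CLPs and 4.72 and 4.80 in Ly6D+ CLPs, the lowest arrays of the 10. Relative to CD127- LMPPs it was 2.01-fold lower in Ly6D+ CLPs (log2 difference -1.01, SE 0.18, adjusted p = 0.00524). Its other differences did not pass: -0.30 in CD127+ and -0.55 in Ly6D- relative to CD127- cells (adjusted p = 0.549 and 0.0975), -0.71 between Ly6D+ CLPs and CD127+ LMPPs (95% interval -1.11 to -0.31, adjusted p = 0.0538), -0.25 between Ly6D- CLPs and CD127+ LMPPs (adjusted p = 0.505) and -0.46 between the CLP groups (adjusted p = 0.523).

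The Il15ra call missed the threshold without Ly6D+ CLP array 1 (adjusted p = 0.0518). It also rested on the summary of its 14 probe sets: the brightest of them differed by -0.03 (adjusted p = 0.982).

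Il4ra, the chain that binds IL-4, was above the limit on every array and passed in no comparison. It read 7.69, 7.72 and 7.35 in CD127- LMPPs, 7.70, 7.39 and 7.22 in CD127+ LMPPs, 7.80 and 8.23 in Ly6D- CLPs and 7.65 and 7.70 in Ly6D+ CLPs. Ly6D- CLPs lay above all the other arrays, and the other 3 groups overlapped. The 2 Ly6D- CLP arrays gave the 2 largest differences for Il4ra, 0.58 over CD127+ LMPPs (95% interval 0.14 to 1.01, adjusted p = 0.156) and 0.43 over CD127- LMPPs (-0.01 to 0.86, adjusted p = 0.237).

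Crlf2, which joins CD127 in the receptor for thymic stromal lymphopoietin, read 6.64, 6.68 and 6.29 in CD127- LMPPs and 6.66, 6.57 and 6.19 in CD127+ LMPPs. It read 6.32 and 6.59 in Ly6D- CLPs and 5.85 and 6.15 in Ly6D+ CLPs, whose arrays lay below all the others. The differences of Ly6D+ CLPs were -0.54 from CD127- LMPPs (95% interval -0.97 to -0.11, adjusted p = 0.111), -0.47 from CD127+ LMPPs (-0.90 to -0.04, adjusted p = 0.218) and -0.45 from Ly6D- CLPs (-0.93 to 0.02, adjusted p = 0.566). None passed. Over the alternatives tried, the difference of Ly6D+ CLPs from CD127- LMPPs ran from -0.69 to 0.38. Their difference from Ly6D- CLPs ran from -0.60 to -0.01, the latter with the brightest probe set. The LMPP groups differed by -0.07 (-0.45 to 0.32).

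Il2ra, the α chain that completes the high-affinity IL-2 receptor, lay under the limit on all 10 arrays, with values from 3.38 to 4.10. Il9r, the chain that binds IL-9, read 4.002 to 4.20 in CD127- LMPPs, 4.12 to 4.67 in CD127+ LMPPs, 4.36 and 4.40 in Ly6D- CLPs and 4.58 and 4.14 in Ly6D+ CLPs, with every group mean under the limit. The groups of either gene overlapped apart from the Ly6D- CLPs, which lay above CD127+ LMPPs for Il2ra and above CD127- LMPPs for Il9r. Neither gene was called in any comparison, and their largest differences were -0.19 for Il2ra (CD127+ against CD127- LMPPs, adjusted p = 0.779) and 0.29 for Il9r (same comparison, adjusted p = 0.591). Single probe sets of both genes were brighter: for Il2ra 1 of them had group means of 6.63, 6.58, 6.85 and 7.04 in CD127- LMPPs, CD127+ LMPPs, Ly6D- CLPs and Ly6D+ CLPs, and for Il9r 1 had 5.26, 5.58, 5.26 and 5.82. Neither of these 2 was called by limma in any comparison (their lowest p, adjusted across all probe sets of the arrays, was 0.589 and 0.522). The Il9r probe set with the largest difference had means of 4.48, 4.82, 6.43 and 5.94 in the same order of groups. It was higher by 1.94 in Ly6D- CLPs than in CD127- LMPPs and was not called by limma (adjusted p = 0.0828). These probe sets were chosen after their values were seen.

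Counted by comparison, 3 of the 9 genes were called between the LMPP groups, all higher in CD127+ cells, where limma called 1.47% of all genes, 0.881% as higher. In Ly6D- CLPs relative to CD127- LMPPs 4 of 9 were called, all higher, against 7.10% of all genes and 2.93% as higher. In Ly6D+ CLPs relative to CD127- LMPPs 5 of 9 were called, 4 higher and 1 lower, against 10.9% of all genes, 3.93% as higher and 6.94% as lower. These 3 comparisons share the CD127- LMPP arrays, and 1 call in each, that of Il7r, follows the sort.

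Away from the CD127- LMPPs few genes of the family were called. Ly6D+ CLPs differed from CD127+ LMPPs in 1 of 9, higher (4.03% of all genes called, 1.28% as higher), with 5 of 9 and 19.1% of all genes at an unadjusted p under 0.05. Ly6D- CLPs differed from CD127+ LMPPs in 0 of 9 by limma (2.06% of all genes), with 3 and 18.0% of all genes at an unadjusted p under 0.05. The 2 CLP groups differed in 0 of 9 by limma (0.0993% of all genes), with 1, Il15ra, and 9.10% of all genes at an unadjusted p under 0.05. Limma's F test for any difference among the 4 groups called 5 of 9, Il7r, Il2rg, Il2rb, Il21r and Il15ra, against 9.38% of all genes. The Il7r call there follows the sort as well. The adjusted p was 0.266 for Il4ra, 0.271 for Crlf2, 0.574 for Il9r and 0.859 for Il2ra.

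Without overlap between arrays stood 4 of 9 genes between the LMPP groups (17.7% of all genes), 7 for Ly6D- CLPs and CD127- LMPPs (36.6%), 6 for Ly6D+ CLPs and CD127- LMPPs (42.5%), 6 for Ly6D- CLPs and CD127+ LMPPs (34.3%), 6 for Ly6D+ CLPs and CD127+ LMPPs (37.9%) and 7 for the CLP groups (37.6%). With so few arrays a gap between groups was common, and the gap alone was not taken as a difference. The median difference of the 9 genes was 0.29 in CD127+ LMPPs, 0.43 in Ly6D- CLPs and 0.25 in Ly6D+ CLPs relative to CD127- LMPPs, where the median over all genes was -0.0051, -0.0028 and 0.022. The range of group means was 5.31 for Il7r, which follows the sort, and 0.0130% of all genes had a range as large. It was 1.51 for Il2rg (1.37% of genes), 1.29 for Il2rb (2.28%), 1.11 for Il21r (3.97%) and 1.01 for Il15ra (5.46%).

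**Figure D2:**
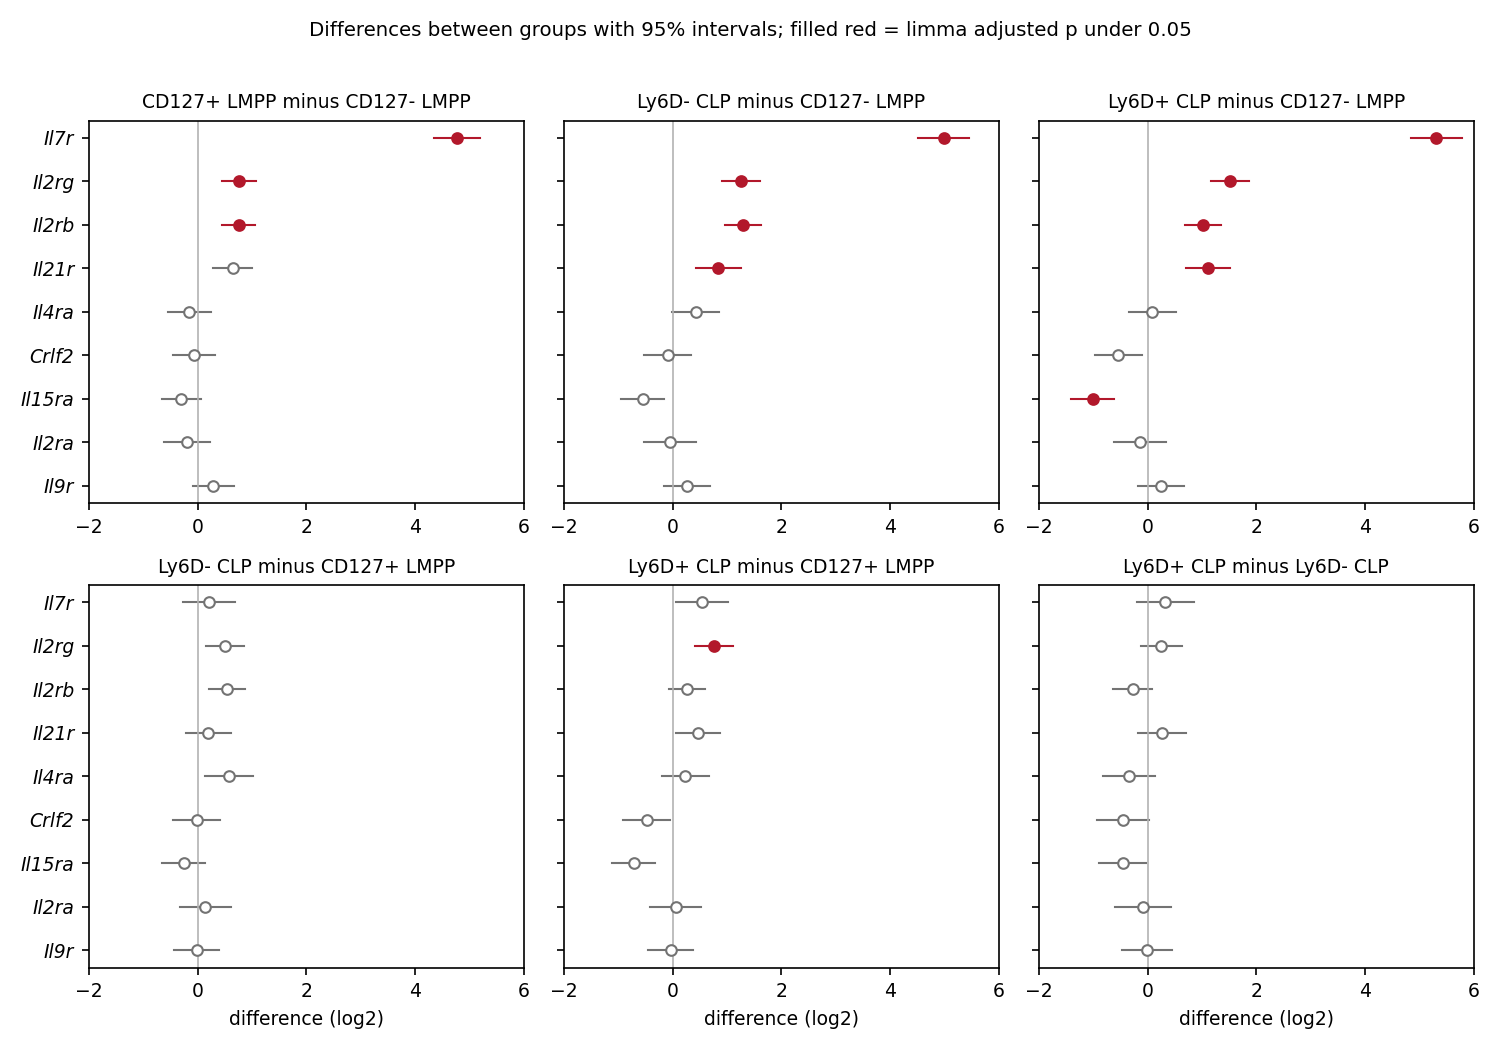
Differences (log2, horizontal axis) of the 9 receptor genes in the 6 comparisons, with 95% intervals; filled red points have a limma adjusted p under 0.05. Filled points number 3, 4 and 5 in the comparisons with CD127- LMPPs, 1 (Il2rg) between Ly6D+ CLPs and CD127+ LMPPs and 0 in the other panels.

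Read as receptors, the 2 chains of the IL-7 receptor, Il7r and Il2rg, had the same order of group means. Ly6D+ CLPs were highest and CD127- LMPPs lowest. Il21r, the partner of Il2rg in the IL-21 receptor, had this order in the mean of its probe sets. With the brightest Il21r probe set it changed, with differences from CD127+ LMPPs of -0.52 in Ly6D- and -0.05 in Ly6D+ CLPs. Crlf2, the other partner of CD127, had the reverse order in the mean of its probe sets, an order that did not hold in every alternative tried. Between neighbours in these orders limma called only the step from CD127- to CD127+ LMPPs, for Il7r, where the sort sets it, and for Il2rg, and called no step of Il21r or Crlf2. Of the chains of the IL-15 receptor, Il2rb and Il2rg were called higher and Il15ra lower in Ly6D+ CLPs relative to CD127- LMPPs. In the GRCm38.p6 gene table Il4ra and Il21r are neighbours with no gene between them, and Il21r was called in the F test while Il4ra was not. Il2ra and Il15ra lie next to each other with no protein-coding gene between, Il15ra called and Il2ra under the limit. Whether the neighbours differed from each other was not tested.

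Single probe sets showed how evenly each gene moved. All 10 Il7r probe sets were higher in CD127+ than in CD127- LMPPs, by 3.56 to 5.56, and limma called 9 of them over all 269751 probe sets, of which 0.0337% were called higher. In Ly6D- CLPs 9 were called (0.125% of all probe sets higher) and in Ly6D+ CLPs all 10 (0.362% higher), by 4.27 to 6.18. The transcript difference of Il7r therefore showed in each of its probe sets.

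For Il2rg, 11 of 12 probe sets were higher in CD127+ than in CD127- LMPPs (-0.08 to 1.16), and all 12 in Ly6D- CLPs (0.59 to 1.65) and in Ly6D+ CLPs (0.72 to 2.16), where 2 were called. All 9 Il21r probe sets were higher in Ly6D+ CLPs than in CD127- LMPPs, unevenly, from 0.20 to 2.88, and 1 was called. Of the 12 Il2rb probe sets, 10 were higher in CD127+ LMPPs and in Ly6D+ CLPs and 11 in Ly6D- CLPs, with 0 called in each by limma, and 8 of the 12 rose above the low-signal limit in any group. Probe sets are parts of 1 transcript and not replicates.

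In Ly6D+ CLPs 13 of the 14 Il15ra probe sets were lower than in CD127- LMPPs, from -3.18 to 0.14, with 0 called by limma (0.395% of all probe sets lower). Between the CLP groups the Il15ra probe sets ran from -2.39 to 2.47, with 6 higher and 8 lower in Ly6D+ cells. Of the 10 Il2ra probe sets 3 passed the low-signal limit in any group, and of the 11 Il9r probe sets 7 did. That limit was set from gene values and not from single probe sets. Here and for Il2rb, passing it does not by itself show signal. Where each probe set lies in its transcript was not analysed here.

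**Figure D3:**
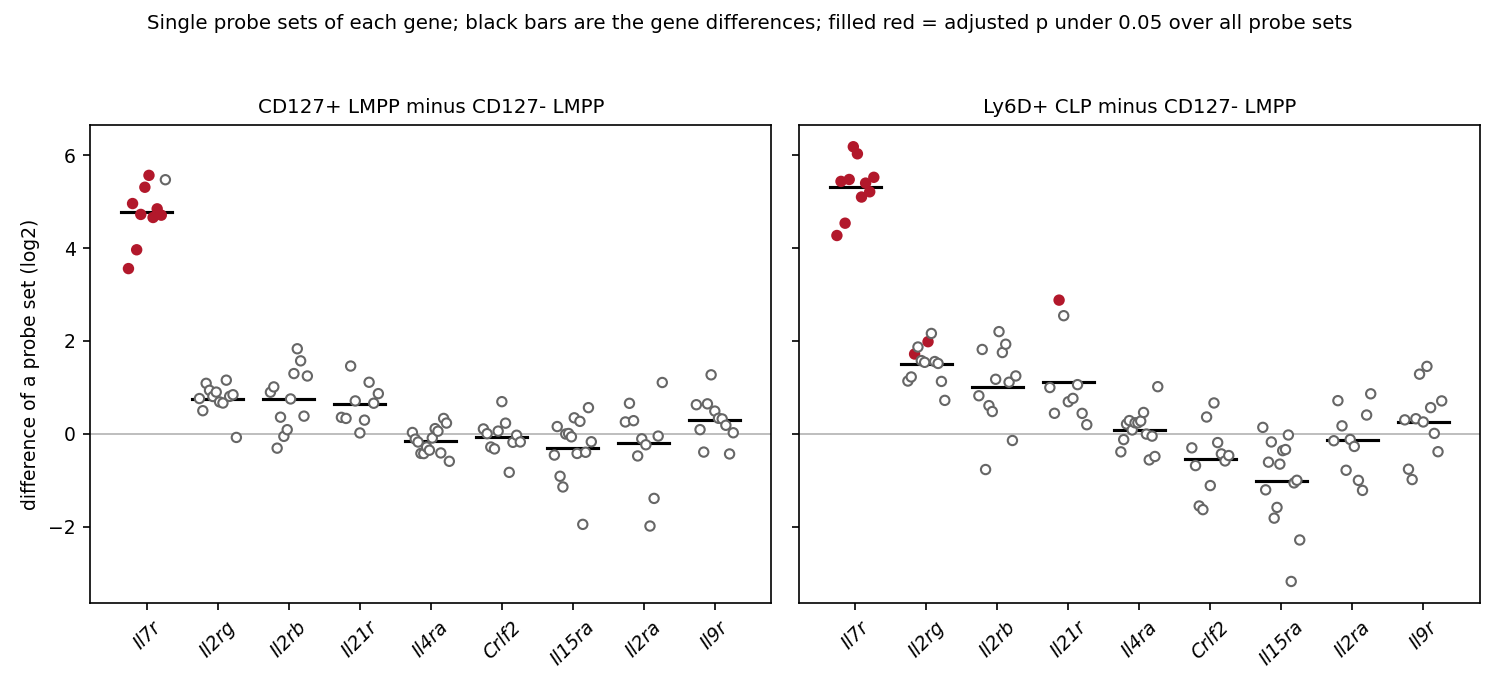
Differences (log2, vertical axis) of single probe sets of the 9 receptor genes relative to CD127- LMPPs, in CD127+ LMPPs (left) and Ly6D+ CLPs (right); black bars are the gene differences and filled red points have a limma adjusted p under 0.05 over all probe sets. The Il7r probe sets lie between 3.56 and 6.18, while those of Il15ra in Ly6D+ CLPs spread from -3.18 to 0.14.

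The genes whose pattern over the 10 arrays was nearest to Il7r, each gene centred on its own mean, were Gbp8 (root mean square distance 0.70 log2), Rag1 (0.99), Blnk (0.99), St6gal1 (1.07) and Cmah (1.14), among 11321 genes searched. Rag1 encodes a subunit of the recombinase that joins antigen receptor segments, Blnk an adaptor of the pre-B cell receptor and St6gal1 a sialyltransferase. Gbp8 had group means of 3.22 in CD127- LMPPs, 6.81 in CD127+ LMPPs, 7.77 in Ly6D- CLPs and 8.50 in Ly6D+ CLPs. Rag1 had 4.47, 7.69, 7.11 and 9.71 in the same order of groups, so its mean was lower in Ly6D- CLPs than in CD127+ LMPPs, while the mean of Il7r was not. Nearest to Il2rg were Il1r2 (0.12), a decoy receptor for interleukin 1, Zbtb10 (0.13), Ccdc135 (0.13), the activation marker Cd69 (0.14) and the immediate early gene Nr4a1 (0.15). Cd69 had means of 9.54, 10.2, 10.9 and 11.2 and Nr4a1 of 10.01, 10.9, 11.4 and 11.5. These genes were picked for their likeness, so their values are a description.

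Of 7 measured ligand genes (Il2, Il4, Il7, Il9, Il15, Il21 and Tslp), limma called 0 between the LMPP groups. Il15 was called lower in both CLP groups than in CD127- LMPPs. It read 6.61, 6.57 and 6.98 in CD127- LMPPs, 6.16, 6.04 and 6.35 in CD127+ LMPPs, 5.09 and 5.13 in Ly6D- CLPs and 4.38 and 5.35 in Ly6D+ CLPs, and neither CLP group overlapped the LMPPs. The fold was 3.06 in Ly6D- CLPs (log2 difference -1.61, SE 0.25, adjusted p = 0.00442) and 3.63 in Ly6D+ CLPs (-1.86, SE 0.25, adjusted p = 0.00112). Both calls held in all alternatives tried. Il15 was also lower in Ly6D+ CLPs than in CD127+ LMPPs (-1.32, SE 0.25, adjusted p = 0.0161), a call lost without CD127+ LMPP array 3 (0.0606) or Ly6D+ CLP array 1 (0.128) and with the median or the brightest probe set (0.0755 and 0.298). Il7 lay under the low-signal limit in every group. Il2 was called higher in Ly6D- CLPs than in CD127+ LMPPs (0.72, adjusted p = 0.0386) with both means under the limit, and it lost that call without any 1 of 9 of the arrays, all but CD127- LMPP array 2 (0.0569 to 0.125).

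Of 8 measured JAK and STAT genes, limma called 0 between the LMPP groups, with Stat5b the largest difference (-0.41, adjusted p = 0.453). In Ly6D+ CLPs relative to CD127- LMPPs Jak1, a kinase of common γ family receptors, was 1.40-fold higher (0.49, SE 0.14, adjusted p = 0.0425). Stat3 was 1.60-fold higher there (0.67, SE 0.18, adjusted p = 0.0379). Stat5b, a STAT5 gene, was lower (-0.97, SE 0.21, adjusted p = 0.0139). In Ly6D- CLPs Jak1 was called higher (0.51, adjusted p = 0.0471). Jak3, the kinase of the common γ chain, was not called in any comparison and differed by 0.14 between the LMPP groups (95% interval -0.14 to 0.43). The list medians were -0.07, -0.09 and -0.13 in CD127+ LMPPs, Ly6D- CLPs and Ly6D+ CLPs relative to CD127- LMPPs. Each of these 4 calls was lost when single arrays were left out: Jak1 in Ly6D+ CLPs without any 1 of the 8 arrays that are not Ly6D- CLPs (0.0554 to 0.229) and in Ly6D- CLPs without any 1 of the 10 (0.0620 to 0.190), Stat3 without any 1 of the CD127- LMPP arrays, CD127+ LMPP array 2 or either Ly6D+ CLP array (0.0553 to 0.216), and Stat5b without Ly6D+ CLP array 1 (0.122) or 2 (0.0516). With the median or the brightest probe set in place of the mean all 4 were lost (adjusted p from 0.0946 to 0.907), and with the brightest Jak1 in Ly6D+ CLPs changed sign (-0.048).

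Of 10 measured feedback regulators, 3 were higher in CD127+ than in CD127- LMPPs and 0 lower, with a list median of 0.08: Cish (1.99-fold, 0.99, SE 0.18, adjusted p = 0.0184), Socs2 (at least 1.24-fold, adjusted p = 0.0333) and Socs3 (1.53-fold, adjusted p = 0.0401). Cish and Socs2 are induced by STAT5 in many cell types and restrain cytokine receptors. Cish read 4.30, 4.67 and 4.43 in CD127- LMPPs, 5.69, 5.27 and 5.41 in CD127+ LMPPs, 6.17 and 5.93 in Ly6D- CLPs and 5.57 and 6.05 in Ly6D+ CLPs, so the CD127- LMPPs were lowest without overlap. In Ly6D- and Ly6D+ CLPs 2 of the 10 were called higher than in CD127- LMPPs, Cish (1.58 and 1.35, adjusted p = 0.00129 and 0.00181) and Socs2 (0.88 and 1.14, adjusted p = 0.0140 and 0.00233), with list medians of 0.27 and 0.18.

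The calls between the LMPP groups were sensitive to single arrays. Cish lost its call without CD127- LMPP array 1 or 3 or CD127+ LMPP array 1 or 3 (adjusted p from 0.0615 to 0.0942), Socs2 without any 1 of the 6 LMPP arrays or either Ly6D+ CLP array (0.0508 to 0.130), and Socs3 without any 1 of the 10 arrays (0.0505 to 0.175). In CLPs, Cish in both groups and Socs2 in Ly6D+ CLPs held with each array left out, and Socs2 in Ly6D- CLPs was lost without Ly6D- CLP array 2 (0.0992). With the brightest probe set Cish lost its call in CD127+ LMPPs (0.56, adjusted p = 0.521), Ly6D- CLPs (0.51, 0.246) and Ly6D+ CLPs (0.14, 0.783), and Socs3 lost its own (0.479). With the median of the probe sets Socs2 lost its call in all 3 comparisons (0.596, 0.454 and 0.178) and Socs3 its own (0.282).

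Of 10 measured adaptors and PI3K pathway genes, Irs2, an adaptor of the insulin and IL-4 receptors, was higher in CD127+ LMPPs (1.68-fold, adjusted p = 0.0333) and Gab2, a docking protein, lower (1.70-fold, log2 difference -0.77, adjusted p = 0.0161), with a list median of -0.02. Irs2 was also higher in Ly6D+ CLPs (0.74, adjusted p = 0.0165), the 1 call of the list there. In Ly6D- CLPs Sos1 was higher (0.64, adjusted p = 0.0191) and Akt1 lower (-0.71, adjusted p = 0.0286) than in CD127- LMPPs, and Sos1 was higher than in CD127+ LMPPs (0.69, adjusted p = 0.0327). The list medians were 0.07 in Ly6D- and 0.18 in Ly6D+ CLPs relative to CD127- LMPPs. All 6 calls were lost with single arrays left out. Irs2 lost its call between the LMPP groups without CD127- LMPP array 1 or 3, any CD127+ LMPP array or either Ly6D+ CLP array (adjusted p from 0.0588 to 0.149), and in Ly6D+ CLPs without CD127- LMPP array 1 or 3 or either Ly6D+ CLP array (0.0502 to 0.103). Gab2 lost its call without CD127- LMPP array 1 or 2 or CD127+ LMPP array 2 or 3 (0.0573 to 0.0804), and Akt1 without any CD127- LMPP array or Ly6D- CLP array 1 (0.0508 to 0.168). Sos1 lost its call against CD127- LMPPs without their array 1 or 2 or either Ly6D- CLP array (0.05003 to 0.110), and against CD127+ LMPPs without any array but CD127- LMPP array 2 (0.0508 to 0.146). With the brightest probe set all 6 were lost (adjusted p from 0.110 to 0.994): the Gab2 difference became -0.018, and Sos1 changed sign between Ly6D- CLPs and CD127+ LMPPs (-0.21).

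Of 11 measured survival and cell cycle targets of IL-7 signalling, limma called 0 between the LMPP groups, and Mycn had the largest difference (0.70, adjusted p = 0.149). Bcl2l11, which encodes the pro-apoptotic protein BIM that IL-7 is known to restrain, was 2.00-fold higher in Ly6D- CLPs (1.00, SE 0.16, adjusted p = 0.00475) and 2.17-fold higher in Ly6D+ CLPs (1.12, SE 0.16, adjusted p = 0.00145) than in CD127- LMPPs, and both calls held in all alternatives tried. It read 7.64, 7.62 and 7.39 in CD127- LMPPs, 8.15, 7.94 and 7.82 in CD127+ LMPPs, 8.59 and 8.52 in Ly6D- CLPs and 8.57 and 8.77 in Ly6D+ CLPs, so the CLP arrays were the highest. Bcl2, the survival gene that IL-7 induces, was not called in any comparison, with -0.40 in CD127+ LMPPs (adjusted p = 0.197), -0.055 in Ly6D- CLPs (95% interval -0.36 to 0.25) and -0.35 in Ly6D+ CLPs (-0.65 to -0.05, adjusted p = 0.138) relative to CD127- LMPPs. Bcl2l11 was also higher in Ly6D+ CLPs than in CD127+ LMPPs (0.70, adjusted p = 0.0347), a call lost without CD127- LMPP array 1, CD127+ LMPP array 2 or 3 or either Ly6D+ CLP array (0.0522 to 0.226). The list medians were 0.08, 0.17 and 0.11 in CD127+ LMPPs, Ly6D- CLPs and Ly6D+ CLPs relative to CD127- LMPPs.

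Of 14 measured transcription factors known to act on Il7r or beside it, 3 were higher in CD127+ LMPPs and 0 lower (list median 0.13): Ebf1, a B lineage factor (log2 difference 2.57, SE 0.16, at least 2.40-fold, adjusted p = 2.66e-05), Ets1 (1.26, SE 0.17, adjusted p = 0.00427) and Gfi1b (1.02, SE 0.17, adjusted p = 0.0130). In Ly6D+ CLPs 5 were higher than in CD127- LMPPs (list median 0.27): Ebf1 (4.70, SE 0.18, at least 10.5-fold, adjusted p = 1.67e-07), Gfi1b (1.21), Ets1 (0.88), Foxo1, an activator of Il7r (0.82, adjusted p = 0.00895), and Ikzf1 (0.59, adjusted p = 0.0155). Sfpi1, the array's symbol for Spi1 (PU.1), was lower in Ly6D+ CLPs (2.28-fold, -1.19, SE 0.19, adjusted p = 0.00297) and in Ly6D- CLPs (2.18-fold, -1.12, adjusted p = 0.00649). Ebf1, Ets1 and Gfi1b were called higher in Ly6D- CLPs as well (2.16, 0.82 and 1.33).

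Ebf1 stood apart from Il7r within the groups sorted for CD127. It read 5.80, 5.84 and 5.50 in CD127+ LMPPs, 5.13 and 5.46 in Ly6D- CLPs and 7.83 and 7.86 in Ly6D+ CLPs, after 2.90, 3.33 and 3.20 in CD127- LMPPs. Ly6D+ CLPs thus lay above all other arrays, by 2.55 over Ly6D- CLPs (SE 0.20, adjusted p = 0.000292), while Il7r was not called there. This Ebf1 call was lost when the CLP arrays were fitted alone (adjusted p = 0.0888), and its other calls held in all alternatives tried. Among the other factors, calls were lost without single arrays for Gfi1b between the LMPP groups (CD127- LMPP array 1, adjusted p = 0.0643, or CD127+ LMPP array 3, 0.0743), for Ets1 in Ly6D- CLPs (any CD127- LMPP or Ly6D- CLP array, 0.0511 to 0.116) and Ly6D+ CLPs (CD127- LMPP array 1 or either Ly6D+ CLP array, 0.0509 to 0.131), for Foxo1 (Ly6D+ CLP array 1, 0.109), for Ikzf1 (CD127- LMPP array 1 or either Ly6D+ CLP array, 0.0568 to 0.107) and for Sfpi1 in Ly6D- CLPs (Ly6D- CLP array 1, 0.0525). With the brightest probe set every call of Ets1, Gfi1b, Ikzf1 and Sfpi1 against CD127- LMPPs was lost (0.0627 to 0.824), and with the median that of Foxo1 (0.271).

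Receptor chains of the same structural class outside the common γ family gave 24 measured genes, of which limma called 0 higher in the 3 comparisons with CD127- LMPPs, where 0.881%, 2.93% and 3.93% of all genes were called higher. In CD127+ LMPPs 2 of the 24 were lower than in CD127- LMPPs (0.592% of all genes lower), Il31ra (2.58-fold, -1.37, SE 0.17, adjusted p = 0.00194) and Il6ra, the IL-6 receptor α chain (2.43-fold, -1.28, SE 0.20, adjusted p = 0.00856). In Ly6D- CLPs 5 were lower than in CD127- LMPPs (Il3ra, Il6ra, Il31ra, Csf3r and Ebi3; 4.17% of all genes lower) and in Ly6D+ CLPs 6, the same genes and Il12rb2 (6.94%). The largest of these in Ly6D+ CLPs were Il6ra (4.97-fold, -2.31, SE 0.22, adjusted p = 0.000139), Csf3r, the receptor for the granulocyte growth factor (3.86-fold, -1.95, SE 0.16, adjusted p = 4.52e-05), Il31ra (-1.44, adjusted p = 0.000870) and Ebi3, a secreted partner chain (-1.39, adjusted p = 0.000381). In Ly6D- CLPs Il3ra lost its call without Ly6D- CLP array 1 (0.0527) and Il31ra without CD127- LMPP array 2 or either Ly6D- CLP array (0.0503 to 0.0927), and in Ly6D+ CLPs Il12rb2 lost its own without Ly6D+ CLP array 1 (0.0654) or 2 (0.0706). With the brightest probe set the calls of Il6ra in CD127+ LMPPs (0.0863), of Il31ra in all 3 groups (0.133, 0.389 and 0.361), of Csf3r in Ly6D- CLPs (0.0830) and of Il12rb2 (0.943) were lost, and with the median that of Ebi3 in Ly6D- CLPs (0.138). The list medians were -0.07, -0.06 and -0.13 in CD127+ LMPPs, Ly6D- CLPs and Ly6D+ CLPs, against -0.0051, -0.0028 and 0.022 over all genes. The monocyte and macrophage genes given above were lower in the same groups, and their part in these differences was not tested.

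Il6ra read 8.17, 8.23 and 7.89 in CD127- LMPPs, 6.73, 7.05 and 6.67 in CD127+ LMPPs, 6.29 and 7.04 in Ly6D- CLPs and 5.79 and 5.78 in Ly6D+ CLPs, so that the CD127- LMPPs were highest and the Ly6D+ CLPs lowest, without overlap. Its call between the LMPP groups was lost without CD127+ LMPP array 3 (adjusted p = 0.0548), and both calls of the CLP groups against CD127- LMPPs held in all alternatives tried. Relative to CD127+ LMPPs, 4 of the 24 were lower in Ly6D+ CLPs (2.75% of all genes lower), led by Csf3r (-1.45, SE 0.16, adjusted p = 0.00117) and Il6ra (-1.03, adjusted p = 0.0278), and limma called 0 in Ly6D- CLPs. The Csf3r call held in all alternatives tried, while Il6ra lost its own without any 1 of the CD127+ LMPP or Ly6D+ CLP arrays (0.0565 to 0.155). The others, Il3ra and Ebi3, also lost theirs: Il3ra without CD127- LMPP array 1 or any CD127+ LMPP or Ly6D+ CLP array (0.0558 to 0.188), and Ebi3 without Ly6D+ CLP array 1 (0.103).

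**Figure D4:**
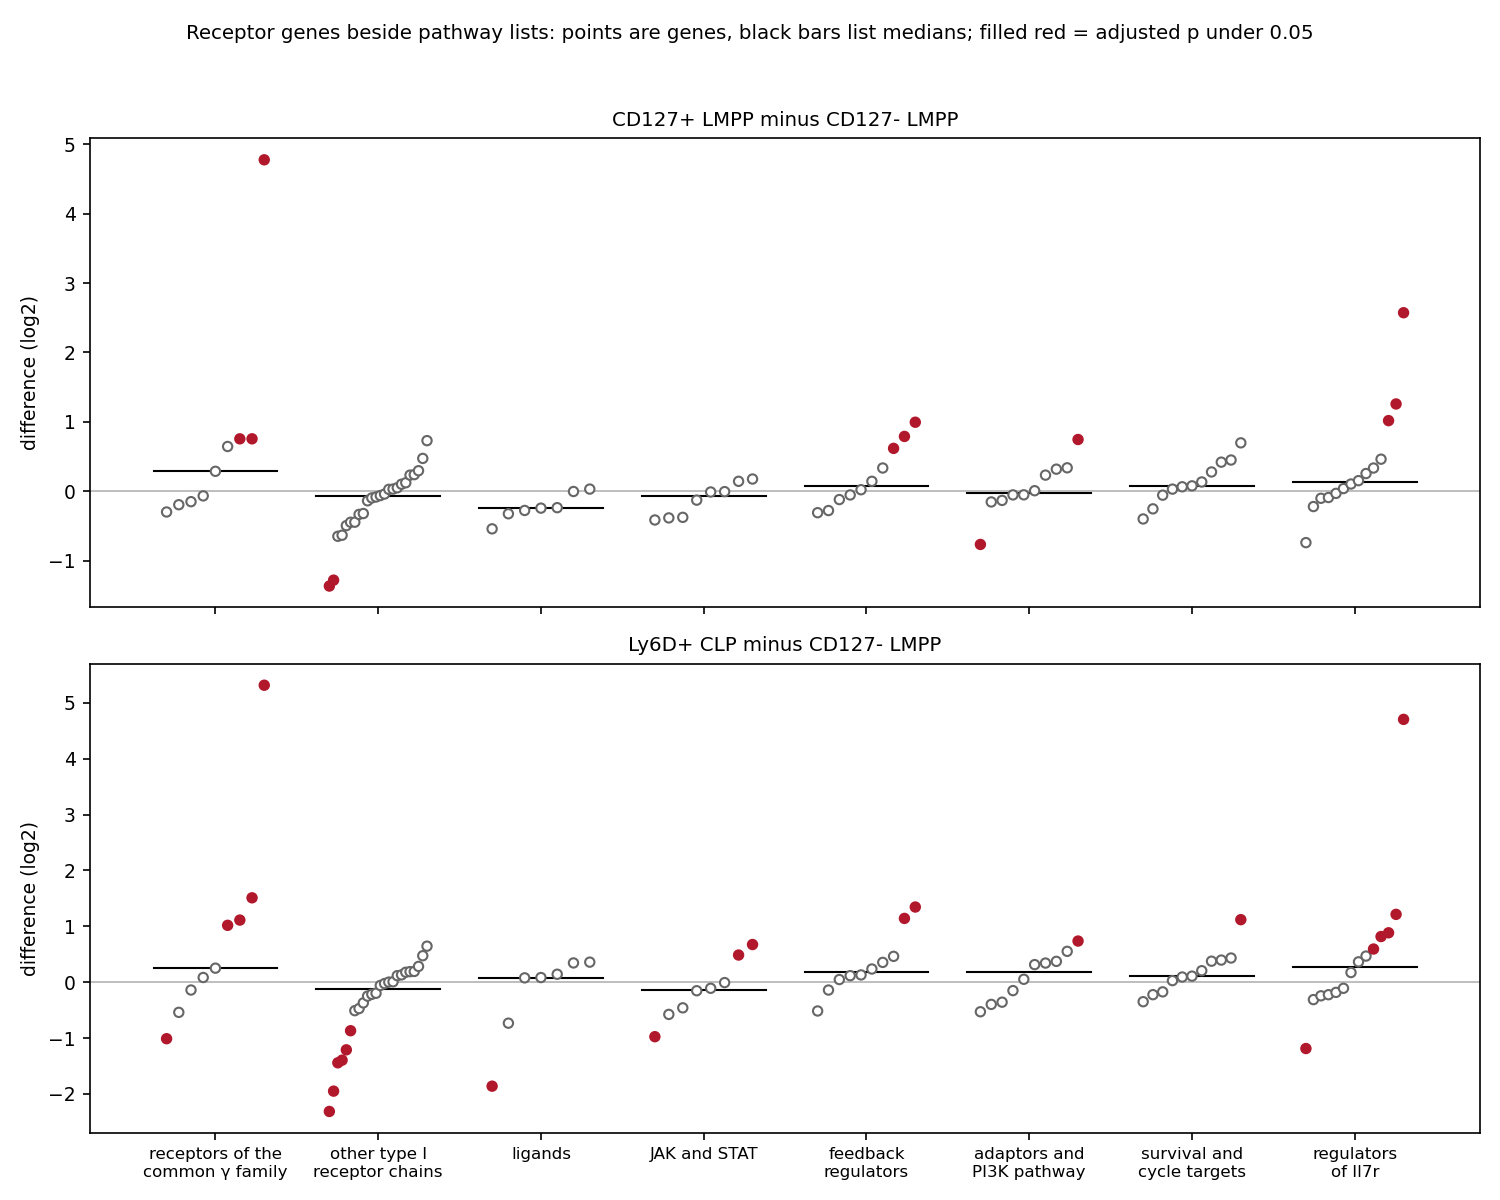
Differences (log2, vertical axis) of the receptor genes and of 7 pathway lists relative to CD127- LMPPs, in CD127+ LMPPs (top) and Ly6D+ CLPs (bottom); points are genes, black bars list medians and filled red points have a limma adjusted p under 0.05. Il7r (4.77 and 5.31) and Ebf1 (2.57 and 4.70) are the highest points, and the filled points of the other type I receptor chains all lie below 0.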

How the data were processed

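RNA from the 10 samples was read as deposited by the authors: 269751 probe sets per array on a log2 scale, from 0.20 to 14.8. Per the submitters' processing notes Affymetrix Power Tools was used; the sources used here give neither its version, summary method, normalization or log base, nor whether LMPP and CLP arrays were run together, and log2 was taken from the range of the values. Of the probe sets, 233753 carried 1 gene symbol in the platform annotation, 5106 several and 30892 none. Those with 1 symbol were averaged to 23152 genes, with a median of 8 probe sets a gene. Of the symbols, 20875 are current and 2274 older names in the GRCm38.p6 RefSeq table, and 3 matched none. A summary over all probe sets of a gene dilutes a change in 1 exon, and array signal near the background compresses differences.

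A group-means model over all 10 arrays was fitted with limma 3.58.1 in R 4.3.3, with 6 contrasts, an F test and Benjamini-Hochberg adjustment at 0.05, and was tested on simulated data. The same model was fitted to single probe sets. The low-signal limit came from 1422 sensory receptor genes, with a median of 2.52 against 4.56 for all genes. No arrays were identical. Sequences were scanned in Python 3.11.15 with pandas 2.3.3, and figures were drawn with matplotlib 3.10.9.

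The receptor genes and the lists were chosen with earlier results of these data known. Of 172 list genes 160 were measured. The text names all 9 receptor genes, the 5 genes nearest to Il7r and to Il2rg by root mean square distance, and from each pathway list up to 4 called genes with the largest difference, otherwise the 1 largest. Further called genes and Jak3, Il7 and Bcl2 were named after their values were seen. Alternatives were quantile normalization, gene values from the brightest probe set or from the median, leaving out dim genes, limma's trend and robust options, the compared arrays alone, the replicate number as a block and each array left out.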

Additional observations from a re-analysis of the deposited data

How the results depend on the processing

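Over 906 refits of the 54 differences of the receptor genes, 859 kept their side of the threshold, 818 of them with the same sign. The remaining 41 of these 859 refits, all of differences that were not called, changed sign. A call was lost in 36, gained in 11 and reversed in 0. Of the 13 calls, 8 held with each array left out and 5 in every alternative: Il7r in its 3 comparisons with CD127- LMPPs and Il2rg in both CLP groups against them. With the brightest probe set the calls fell from 3 to 1 between the LMPP groups (Il7r), from 4 to 2 in Ly6D- CLPs and from 5 to 2 in Ly6D+ CLPs against CD127- LMPPs, from 1 to 0 for Ly6D+ CLPs against CD127+ LMPPs, and from 5 to 2 in the F test. That 1 call also became 0 with the median of the probe sets and 2 (Il2rg and Il15ra) with the filter on dim genes or trend and robust. For Ly6D- CLPs against CD127+ LMPPs 0 calls became 1 (Il2rb) with the filter and 2 (Il2rg and Il4ra) with trend and robust. With each array left out, calls ranged from 1 to 3, 3 to 4 and 4 to 5 against CD127- LMPPs (CD127+ LMPPs, Ly6D- and Ly6D+ CLPs), from 0 to 2 for Ly6D+ CLPs against CD127+ LMPPs, and from 4 to 5 in the F test. Leaving out a CLP array leaves 1 in its group, which is then assumed to vary like the others. Of 56 calls of pathway genes, 26 held with each array left out and 14 in every alternative; with the brightest probe set Jak1 (Ly6D+ CLPs against CD127- LMPPs, -0.048) and Sos1 (Ly6D- CLPs against CD127+ LMPPs, -0.21) reversed. The cause was not tested.

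Calls over all genes moved more. Between the LMPP groups 341 became 160 with the median, 88 with the brightest probe set, 526 with the filter, which left 13266 genes, and 581 with trend and robust (165 to 340 with 1 array left out). The same alternatives took 1643 calls in Ly6D- CLPs against CD127- LMPPs to 824, 1093, 2534 and 2551, and the compared arrays alone gave 664 (808 to 1448). For Ly6D+ CLPs against CD127- LMPPs 2517 became 1364 with the median (1001 to 2652). For Ly6D- CLPs against CD127+ LMPPs 476 became 105 with the median, 1239 with the filter, 1398 with trend and robust and 22 with the compared arrays alone (76 to 438). For Ly6D+ CLPs against CD127+ LMPPs 933 became 429, 1910 and 1954 with the median, the filter and trend and robust (194 to 1016). Between the CLP groups 23 became 11 with the median and with the brightest probe set, 67, 78 and 1 (6 to 27).

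Deviations from the group means correlated at r = -0.0431 to 0.127 over 13 pairs of samples with the same replicate number, others at -0.136 to 0.136. The 2 arrays of a CLP group deviate by opposite amounts, so correlations with them mirror each other and cannot settle a pairing. Between the LMPP groups, arrays of the same number correlated at 0.0195, -0.0114 and 0.0385, and other pairs at -0.0525 to 0.0298. The sample labels name no pairing, so the numbers were not taken as one. With the replicate block Il2rg lost its calls between the LMPP groups (adjusted p = 0.0552) and for Ly6D+ CLPs against CD127+ LMPPs (0.0577; 0 receptor genes called), Il21r lost its call in Ly6D- CLPs (0.0632), Crlf2 gained one in Ly6D+ CLPs (0.0357), and calls over all genes became 104, 553 and 8 for Ly6D- and Ly6D+ CLPs against CD127+ LMPPs and between the CLP groups. Signal near the low-signal limit limits the gene values of Il2ra, Il9r and Il2rb.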
